A study of Mus musculus with 66 samples.

Results

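The 10 genes described here are Notch receptors (Notch1, Notch2 and Notch3), their ligands (Jag1, Jag2 and Dll1) and HES and HEY family genes (Hes1, Hes6, Hey1 and Heyl), picked by name from the 22489 genes of an mRNA-Seq table of C2C12 cells, a mouse myoblast line that fuses into myotubes when serum is withdrawn. The study asked how GFP-tagged variants of histone H3 act on gene expression before and after differentiation. Growth libraries came from subconfluent cells in DMEM with 20% fetal bovine serum, and differentiated libraries from cells kept for 48 h in DMEM with 2% horse serum after they had reached confluence. Each state had 10 libraries, of which 1 was of cells carrying no transgene (WT) and the others were of 9 stable lines, each making 1 variant with GFP at its N-terminus: H3t, H3.1 and H3.2, or H3.3 and its relatives H3mm7, H3mm11, H3mm12, H3mm13 and H3mm16.

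The transgenes were driven by a doxycycline-inducible promoter, inserted by Tol2 transposition, and the lines were selected with doxycycline and G418 and sorted for GFP. The endogenous H3 genes were still present, and every line and state had a single library, so lines serve as the replicates below and a property of a line cannot be told apart from the effect of its variant. The library called H3t here has the column name H3mmT, which fits no other line.

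Notch signalling passes between neighbouring cells. A ligand of the Jagged or Delta family on one cell binds a Notch receptor on the next, the receptor is cut first by an ADAM protease and then by gamma-secretase, and its intracellular part joins RBPJ in the nucleus and turns on repressors of the HES and HEY families. In muscle the pathway is known for holding progenitors back from differentiation, and ligand on one cell for signalling to its neighbours.

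The libraries behaved as growing and differentiating myoblasts by their markers. The summed level of 6 markers of differentiated muscle (Myog, Mymk, Actc1, Tnnc2, Myh3 and Ckm) was 1.78 to 49.3 FPKM in growth and 1498 to 11045 FPKM in differentiated libraries. FPKM is a fragment count scaled to exon length and to the mapped fragments of the library, so it allows levels of different genes to be compared. Of 5 myoblast markers Myod1, Myf5, Des and Cdh15 were present and Pax7, a marker of muscle stem cells, was under 1 FPKM in every library. Myod1 varied widely in growth, from 1.61 FPKM in H3.1 to 110 FPKM in H3mm7. Markers of endothelium, leukocytes and neurons were under 1 FPKM in every library apart from Cdh5, with up to 7.53 FPKM in growth, and Cd53, with up to 1.42 FPKM. Read numbers are unknown, so the error of a single value is not known.

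In the mouse genome build mm9 the receptor genes lie at chr2:26313423-26372183 (Notch1, minus strand), chr3:97817461-97954290 (Notch2, plus strand) and chr17:32257765-32303825 (Notch3, minus strand). The ligand genes lie at chr2:136907192-136942380 (Jag1), chr12:114146801-114167706 (Jag2) and chr17:15504318-15513836 (Dll1), all on the minus strand. The HES and HEY genes lie at chr16:30064470-30067882 (Hes1, plus strand), chr1:93308060-93310615 (Hes6, minus strand), chr3:8663362-8667039 (Hey1, minus strand) and chr4:122910799-122927118 (Heyl, plus strand). All 10 are annotated as protein-coding, and their values cover the whole gene rather than single transcripts.

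Dll1 and Hes6, which were higher in differentiated cells in every line, are shown with a stretch of promoter that holds E-boxes, the class of sequence that MyoD and myogenin bind. RefSeq promoter windows, which run from 250 bases before to 50 after a start site in build GRCm38.p6, were at hand for 7 members in 9 windows (Notch1, Notch2, Notch3, Jag1, Jag2, Dll1 and Hes6). These stretches were picked after their matches had been seen. Capitals mark matches to CAGCTG or CAGGTG on either strand, and both stretches are written 5′ to 3′ on the minus strand, which is the strand of the gene, with the first base of each match counted from the start site.
Hes6, chr1:91414179-91414263, matches from positions -220 and -171: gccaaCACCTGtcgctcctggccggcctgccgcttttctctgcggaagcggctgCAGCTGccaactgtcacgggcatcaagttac
Dll1, chr17:15377053-15377092, matches from positions -155 and -132: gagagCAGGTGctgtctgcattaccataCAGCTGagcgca
No annotated RefSeq gene body overlaps either stretch.

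Across the 32851 RefSeq windows, 6 motifs were searched on both strands. CAGCTG was in 16.3% of all windows and in windows of 3 of 7 members (Hes6, Dll1 and Jag1), and CAGGTG in 20.2% of all windows and in those of 2 of 7 members (Hes6 and Dll1). The general E-box CANNTG, which covers the other E-boxes searched, was in 72.3% of all windows and in those of the same 3 members. CACGTG was in 7.15% of all windows, the RBPJ core TGGGAA in 25.6% and the longer GTGGGAA, which contains it, in 6.38%, and these were in no member's window. Of the 3 members with a CAGCTG, Hes6 and Dll1 were called higher after differentiation and Jag1 was not called. The call of Dll1 says little, because its mean reached 1 FPKM only through its differentiated libraries. Notch3, also called higher, had none of the 6 motifs in its window. A link between these motifs and the change after differentiation was not tested. Shares of all windows are per window, whereas members are counted by gene, and Hes6 and Dll1 had more windows than the others. The Dll1 window at chr17:15375774-15376073 held neither CAGCTG nor CAGGTG.

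Over all 10 lines, 4 members were called higher in differentiated cells (Notch3, Dll1, Hes6 and Heyl), 1 was called lower (Jag2) and 5 were not called (Notch1, Notch2, Jag1, Hes1 and Hey1). To be called, a gene had to differ by 1 or more in log2(FPKM + 1) and to have a limma p below 0.05 after Benjamini-Hochberg adjustment over the 10954 genes whose mean was 1 FPKM or more. Among all of these genes 8.87% were called higher and 8.41% lower, and their median difference was 0.04, against 0.70 for the members. Dll1 and Heyl passed the filter only through their differentiated libraries, so their part in this count and in the median of the members says little.

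**Figure D1:**
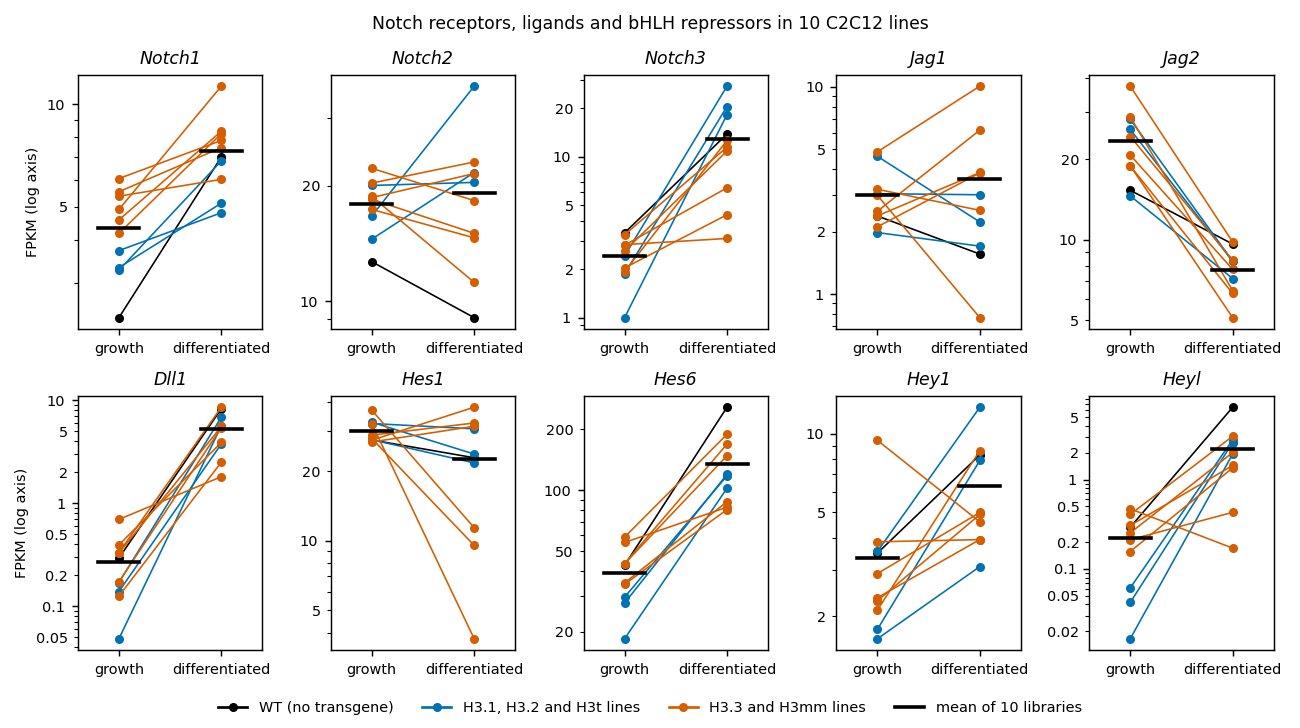
FPKM of the 10 genes (log axis) in growth and differentiated libraries, with a line joining the 2 libraries of each of 10 cell lines and thick bars at the means. Notch3, Dll1 and Hes6 rose in all 10 lines, Jag2 fell in all 10, and Hes1 ended far below its growth level in 3 H3.3-type lines.

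Among the receptors, Notch3 rose, and Notch1 and Notch2 were not called. In bulk RNA from cultures that can hold both myotubes and single cells, fewer cells of a kind and less RNA per cell cannot be told apart. Notch3, which is known from smooth muscle and from satellite cells, lay between 1.00 and 3.36 FPKM in growth (median 2.51) and between 3.11 and 27.4 FPKM in differentiated libraries (median 12). Its mean went from 2.42 ± 0.722 to 12.9 ± 7.57 FPKM (SD, n = 10 and 10), a 5.33-fold ratio, with a log2(FPKM + 1) difference of 1.83 (SE 0.281, adjusted p = 9.84e-06). All 10 lines were higher after differentiation, but the ranges of the states overlapped because H3mm7 reached only 3.11 FPKM, 1.09 times its own growth level. H3t went furthest, from 1.00 to 18.3 FPKM, and H3.1 reached the highest level, 27.4 FPKM.

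Notch1, the best studied of the receptors in muscle progenitors, lay between 2.37 and 6.05 FPKM in growth (median 4.38) and between 4.80 and 11.3 FPKM in differentiated libraries (median 7.22). It was higher in 10 of 10 lines, by 0.64 in log2(FPKM + 1) (SE 0.142, adjusted p = 0.000587), which passed the p threshold and not the size threshold. The smallest gain was that of H3mm11, 1.12 times, and the largest that of WT, 2.96 times.

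Notch2, the receptor with the highest level in growing cells, lay between 12.7 and 22.2 FPKM in growth (median 18.5) and between 9.05 and 36.4 FPKM in differentiated libraries (median 19.3). Its difference of 0.01 was not called (SE 0.176, 95% interval -0.36 to 0.38, adjusted p = 0.962), with 5 lines higher and 5 lower. H3.1 went to 2.18 times its growth level, the top value, and H3mm7 went to 0.597 times its growth level, so the lines spread apart after differentiation while their mean stayed near 18.5 FPKM.

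The share of Notch2 in the receptor message was lower after differentiation. Its share of the summed FPKM of Notch1, Notch2 and Notch3 was 67.5 to 79.4% in growth (median 73.2%) and 30.3 to 58.5% in differentiated libraries (median 51.4%), so that the ranges did not overlap. The share of Notch3 had medians of 10.3% in growth and 28.3% in differentiated cells. Notch2 was the highest receptor in 10 of 10 growth and 8 of 10 differentiated libraries, and Notch3 took that place in differentiated WT and H3.2. The summed level of the receptors was 18.4 to 30.4 FPKM in growth and 21.7 to 70.6 FPKM in differentiated cells. Notch4 and the ligands Dll3, Dll4 and Dlk1 stayed at or under 0.244 FPKM in every library.

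**Figure D2:**
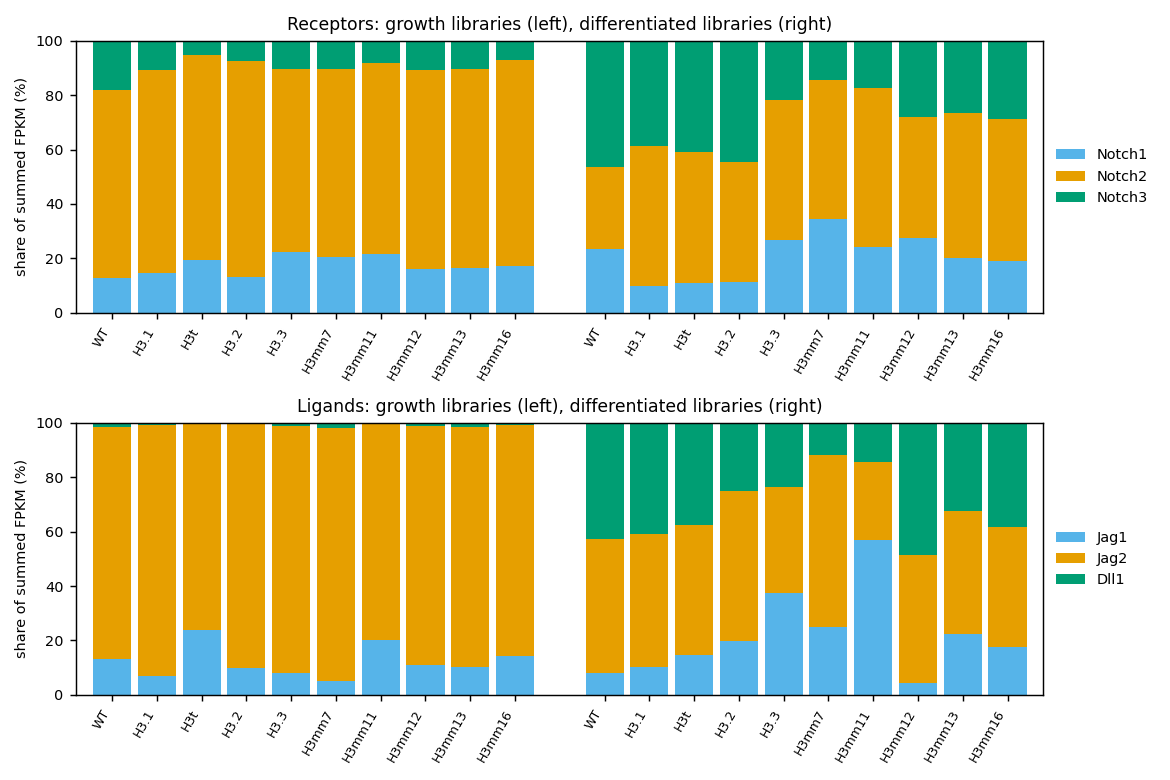
Share of each receptor in the summed FPKM of Notch1, Notch2 and Notch3 (top) and of each ligand in that of Jag1, Jag2 and Dll1 (bottom), 1 bar a library. Notch2 and Jag2 hold the largest share in all 10 growth libraries, and Notch3 and Dll1 take a larger share after differentiation.

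Of the ligands, Dll1 rose, Jag2 fell and Jag1 was not called. Dll1, a Delta ligand that is known to be expressed as myoblasts commit, lay between 0.048 and 0.698 FPKM in growth (median 0.233) and between 1.82 and 8.6 FPKM in differentiated libraries (median 5.52). The mean went from 0.270 ± 0.187 to 5.26 ± 2.28 FPKM, a 19.4-fold ratio over a low growth level. Its limma difference was 2.22 in log2(FPKM + 1) (SE 0.187, adjusted p = 1.80e-09). Dll1 passed the filter only through its differentiated libraries, so this call says little. Every differentiated library lay above every growth library, as for 8.85% of all genes. H3mm7 had the highest growth and the lowest differentiated level, and its gain of 2.60 times was the smallest.

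Jag2, a Jagged ligand, lay between 14.6 and 37.4 FPKM in growth (median 22.5) and between 5.12 and 9.81 FPKM in differentiated libraries (median 8.03). Its mean went from 23.3 ± 7.05 to 7.72 ± 1.48 FPKM, a log2(FPKM + 1) difference of -1.44 (SE 0.148, adjusted p = 3.55e-08). Every differentiated library lay below every growth library, as for 8.74% of all genes. H3t and WT were the lowest growth libraries, and WT fell least, to 0.630 times its growth level.

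Jag1, the other Jagged ligand, lay between 1.98 and 4.86 FPKM in growth (median 2.75) and between 0.769 and 10.1 FPKM in differentiated libraries (median 2.78). The difference of 0.03 was not called (SE 0.249, 95% interval -0.48 to 0.55, adjusted p = 0.918), and 4 lines were higher and 6 lower. The lines parted: H3.3, H3mm7, H3mm11 and H3mm13 went up, by 1.62 to 2.47 times, and H3mm12 went down to 0.257 times its growth level.

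Jag2 gave 75.7 to 93.0% of the summed FPKM of the 3 ligands in growth and 28.9 to 63.4% in differentiated libraries. Dll1 went from 0.251 to 1.73% in growth to between 11.7 and 48.5% in differentiated libraries, which do not overlap. Jag2 was the highest ligand in 10 of 10 growth and 8 of 10 differentiated libraries. The exceptions were H3mm11, where Jag1 held 56.9%, and H3mm12, where Dll1 held 48.5%.

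Among the HES and HEY genes, Hes6 and Heyl rose. Hes6, which is unlike the rest in that it counters Hes1 and favours differentiation, had the highest mean of the members in both states. It lay between 18.5 and 58.7 FPKM in growth (median 38.8) and between 80.4 and 257 FPKM in differentiated libraries (median 119). The limma difference was 1.74 in log2(FPKM + 1) (SE 0.22, adjusted p = 7.10e-07), and 10 of 10 lines were higher. Every differentiated library lay above every growth library, as for 8.85% of all genes. H3mm7 gained least, 1.49 times, and WT most, 6.03 times.

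Hes1, the classical Notch target, lay between 26.8 and 36.8 FPKM in growth (median 28.2) and between 3.76 and 37.9 FPKM in differentiated libraries (median 23.3). Its difference of -0.61 was not called (SE 0.286, 95% interval -1.21 to -0.01, adjusted p = 0.0736), and 7 lines were lower and 3 higher. Without H3mm7 the difference was -0.37 (adjusted p = 0.141), and over all alternatives the adjusted p lay between 0.0455 and 0.175. In growth its 10 libraries were the closest together of the members on the log2 scale, with an SD of 0.15, and after differentiation the SD was 0.95. H3.3, H3mm7 and H3mm11 kept 0.309, 0.117 and 0.344 times their growth levels, and the other 7 lines between 0.728 and 1.39 times.

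Hey1 lay between 1.64 and 9.43 FPKM in growth (median 2.64) and between 3.1 and 12.6 FPKM in differentiated libraries (median 4.95). It was higher in 9 of 10 lines, by 0.77 in log2(FPKM + 1) (SE 0.237, adjusted p = 0.00805), which passed the p threshold and not the size threshold. H3mm7 was the exception, with the highest growth level of all lines and 0.488 times that level afterwards.

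Heyl lay between 0.0165 and 0.470 FPKM in growth (median 0.233) and between 0.171 and 6.44 FPKM in differentiated libraries (median 1.97). The difference was 1.23 in log2(FPKM + 1) (SE 0.236, adjusted p = 0.000135), and 9 of 10 lines were higher. Heyl passed the filter only through its differentiated libraries, so this call says little. H3mm7 went down to 0.364 times its growth level and WT had the highest differentiated level. Without WT the mean of Heyl fell under 1 FPKM and it was not tested, which left 3 members called higher.

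By mean level the order in growth was Hes6, Hes1, Jag2 and Notch2, then Notch1, Hey1, Jag1 and Notch3, then Dll1 and Heyl. Notch2 was above Notch1, and Notch3 above Dll1, in 10 of 10 libraries, whereas Hes6 was above Hes1 in only 6 of 10 and Hey1 above Jag1 in 4 of 10. After differentiation Hes6 was above Hes1 in 10 of 10 libraries, and none of the later neighbours in the order (Hes1, Notch2, Notch3, Jag2, Notch1, Hey1, Dll1, Jag1 and Heyl) were ordered alike in more than 8 of 10.

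**Figure D3:**
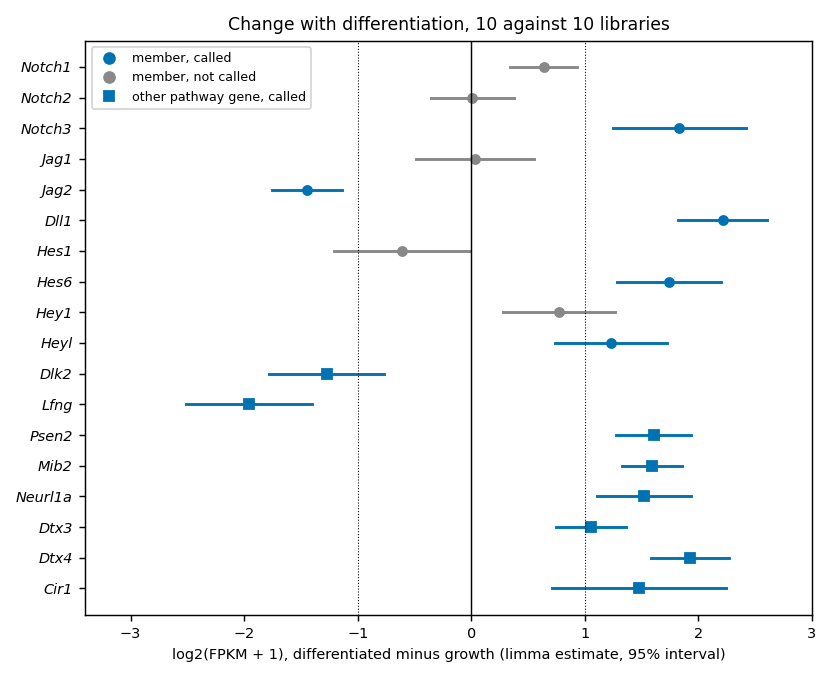
Difference in log2(FPKM + 1) between differentiated and growth libraries (limma estimate with 95% interval, 10 against 10 libraries) for the 10 members and the 8 other pathway genes that were called; dotted lines mark the size threshold of 1. Dll1 rose most among the members at 2.22, having passed the filter only through its differentiated libraries, and Lfng fell most among the genes shown at -1.96.

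Of 60 other genes of the pathway, 44 passed the filter, and 6 were called higher, 2 lower and 36 were not called, with a median difference of 0.14. Among all genes tested 8.87% were called higher and 8.41% lower, and the median was 0.04. Lfng, a glycosyltransferase that changes which ligands a receptor answers to, went from 21.4 ± 3.63 to 5.84 ± 5.25 FPKM (log2 difference -1.96, SE 0.268, adjusted p = 2.21e-06), lower in 10 of 10 lines. Dlk2, a Delta-like protein that inhibits signalling, went from 3.5 ± 1.76 to 0.938 ± 1.02 FPKM (-1.27, SE 0.243, adjusted p = 0.000124). Dlk2 passed the filter only through its growth libraries, so its call says little. Both overlapped between the states, Lfng because H3.1 kept 19.7 FPKM. Hdac1, a histone deacetylase of corepressor complexes, went from 84.0 ± 30.0 to 34.9 ± 15.1 FPKM and was lower in 10 of 10 lines. Its difference of -1.25 (adjusted p = 0.0593) was not called, but was called with the 2 libraries of a line paired (adjusted p = 3.17e-07) and without WT (-1.27), which made 3 genes lower. Growing WT held the lowest growth level of Hdac1, 4.00 FPKM.

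Genes called higher were spread over several steps. Psen2, a catalytic subunit of gamma-secretase, went from 2.64 ± 0.902 to 10.2 ± 3.06 FPKM (1.61, SE 0.158, adjusted p = 1.82e-08). Mib2 and Neurl1a, ubiquitin ligases that act in ligand endocytosis, rose by 1.59 (SE 0.127) and 1.52 (SE 0.20), with adjusted p of 7.43e-10 and 1.21e-06. In these 3 genes every differentiated library lay above every growth library, as for 8.85% of all genes. Dtx3 and Dtx4, Deltex ubiquitin ligases, rose by 1.05 (SE 0.148) and 1.93 (SE 0.165), with adjusted p of 3.07e-06 and 2.23e-09, and Cir1, a corepressor that binds RBPJ, by 1.48 (SE 0.370, adjusted p = 0.00175). Dtx4 did not overlap between the states either, whereas Dtx3 and Cir1 did. Each of the 6 was higher in 10 of 10 lines.

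By role, 0 of 8 genes of the nuclear complex around RBPJ were called with limma, although 6 had an unadjusted p under 0.05 and 5 an adjusted one, with differences of up to 0.90. Other roles were much the same. An unadjusted limma p under 0.05 was held by 5 of 5 genes of ligand endocytosis and 6 of 7 of receptor inhibition and turnover. It was held by 3 of 4 genes of receptor glycosylation, 6 of 10 corepressors, 4 of 9 proteases and gamma-secretase subunits and 1 of 1 ligand. Calls were made for 1 of 9 proteases and gamma-secretase subunits, 2 of 5 genes of ligand endocytosis, 2 of 7 of receptor inhibition and turnover, 1 of 4 of receptor glycosylation and 1 of 10 corepressors. Among all genes tested 8.87% were called higher and 8.41% lower. The share of all genes with a p under 0.05 is not given here, and differences between roles were not tested. The other HES and HEY genes listed (Hes2, Hes3, Hes5, Hes7 and Hey2) did not exceed 0.375 FPKM in any library, and the feedback target Nrarp did not exceed 0.948 FPKM. Nrarp was lower after differentiation in 10 of 10 lines, with means of 0.645 and 0.250 FPKM, but was under the filter and not tested.

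The variants differ in sequence at few residues, and the study sorts them into an H3.1/H3.2 type (H3.1, H3.2 and H3t) and an H3.3 type (H3.3 and the 5 H3mm variants). These were compared over 3 and 6 lines in a fit of the 18 GFP-H3 libraries, in which 9 members passed the filter and Heyl did not. In differentiated cells 1 member, Notch3, was called between the types, against 0.768% of all genes. H3.1, H3t and H3.2 had 27.4, 18.3 and 20.5 FPKM, and the H3.3-type lines 6.41 (H3.3), 3.11 (H3mm7), 4.36 (H3mm11), 11.5 (H3mm12), 10.8 (H3mm13) and 12.6 FPKM (H3mm16). No H3.3-type line reached the lowest H3.1/H3.2-type line, as for 2.95% of all genes, and the difference was -1.45 (SE 0.315, 95% interval -2.12 to -0.79, adjusted p = 0.0290). The fit took 1 spread per gene from both states. Over all 10 lines the SD of Notch3 in log2(FPKM + 1) was 0.336 in growth and 0.887 in differentiated cells. The call was lost without H3.1, H3t, H3.3 or H3mm11. WT, which has no transgene, had 13.8 FPKM and lay between the types.

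Of the other pathway genes only Lfng was called between the types, in differentiated cells, where 0.768% of all genes were called. It had 19.7, 7.72 and 6.63 FPKM in differentiated H3.1, H3t and H3.2 and 1.49 to 5.54 FPKM in the 6 H3.3-type lines. The limma difference was -1.45 (SE 0.305, adjusted p = 0.0267). All H3.3-type lines were lower, as for 2.95% of all genes. Whether the call of Lfng holds without H3.1 is not given here. Notch1 and Notch2 were not called in differentiated cells, with differences of 0.47 (95% interval 0.16 to 0.79, adjusted p = 0.0915) and -0.56 (95% interval -0.98 to -0.14, adjusted p = 0.126).

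In growth 0 members were called between the types with limma, against 0.210% of all genes, and 2 had an unadjusted p under 0.05, as had 1033 of 10931 genes. They were Hes6, with 34.4 to 58.7 FPKM in H3.3-type and 18.5 to 29.7 FPKM in H3.1/H3.2-type lines (0.80, SE 0.270, adjusted p = 0.293), and Notch1, with 4.18 to 6.05 against 3.26 to 3.72 FPKM (0.46, SE 0.150, adjusted p = 0.283). Neither overlapped between the types, and 5.95% of all genes were likewise higher in all H3.3-type lines. The markers Myod1 (26.7 to 110 against 1.61 to 25.1 FPKM) and Myog (7.35 to 23.1 against 0.106 to 3.21 FPKM) were also higher there. So were Mymk, Tnnc2 and Des, whereas Myf5, Cdh15, Pax7, Actc1, Myh3 and Ckm overlapped between the types. The part of these marker differences in the levels of Hes6 and Notch1 was not tested. Notch3 in growth had 1.93 to 3.28 FPKM in H3.3-type and 1.00 to 2.42 FPKM in H3.1/H3.2-type lines, a difference of 0.40 that was not called (95% interval -0.27 to 1.06, adjusted p = 0.736). The difference between its differentiated and growth contrasts was -1.85 (SE 0.446), with an adjusted p of 0.249. In that test limma called 0 members and 0% of all genes, and 2 members (Notch3 and Notch2) and 999 genes had an unadjusted p under 0.05.

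The study separates the differentiated H3.3, H3mm7 and H3mm11 lines from the rest by principal components of these same libraries, so the values that follow are a description, with no test. Of the members 3 were lower in all of these 3 lines than in all of the other 7 (Hes1, Notch3 and Hes6) and 0 were higher, beside 7.88% of all genes lower and 8.89% higher. Hes1 had 11.4, 3.76 and 9.54 FPKM in H3.3, H3mm7 and H3mm11 and 21.7 to 37.9 FPKM in the others, whose mean was 3.48 times as high. Notch3 had 6.41, 3.11 and 4.36 FPKM against 10.8 to 27.4 FPKM, and Hes6 had 87.9, 82.6 and 80.4 FPKM against 102 to 257 FPKM. Of the 8 called genes of the wider pathway, Dtx4 was also lower in all 3 lines, with 16.4 to 20.2 against 21.1 to 45.4 FPKM.

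Jag1 went the other way in these lines, with 6.19, 3.85 and 10.1 FPKM against 0.769 to 3.86 FPKM, the overlap being that of H3mm7 with H3mm13. Dll1 had 1.82 to 3.91 FPKM in the 3 lines against 3.79 to 8.6 FPKM, and Heyl 0.171 to 1.44 against 1.35 to 6.44 FPKM, both overlapping. In growth 1 member, Notch1, was higher in all of these lines, with 5.37 to 6.05 against 2.37 to 4.91 FPKM, and 0 were lower, beside 1.86% of all genes higher and 0.831% lower. The muscle genes Actc1, Myh3 and Ckm were also higher there in growth without overlap, with 2.60 to 6.85 against 0.560 to 2.34 FPKM for Actc1. Levels were low for Myh3 (0.251 to 0.536 against 0.0211 to 0.235 FPKM) and Ckm (0.664 to 1.36 against 0 to 0.300 FPKM). Myog, Mymk and Tnnc2 overlapped in growth. After differentiation the summed markers of differentiated muscle were 1498 to 2335 FPKM in these lines, overlapping the 1709 to 11045 FPKM of the others. Actc1 and Myh3 were lower without overlap, with 257 to 364 against 521 to 4205 FPKM for Actc1. Myog, Mymk, Tnnc2 and Ckm overlapped. Differentiated H3.1 and H3t were about as low for Tnnc2, with 310 and 468 FPKM against 461 to 595 FPKM in the 3 lines. The same held for Ckm, with 144 and 94.9 FPKM against 104 to 166 FPKM. The summed myoblast markers were 564 to 875 against 792 to 1614 FPKM, and most of that sum was Des, with 378 to 565 against 547 to 1273 FPKM. Myod1 was lower in all 3 lines, with 25.9 to 30.4 against 38.1 to 107 FPKM, while Myf5 had 56.3 to 95.9 against 17.5 to 75.1 FPKM. The part of these differences in the levels of the Notch genes was not tested.

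**Figure D4:**
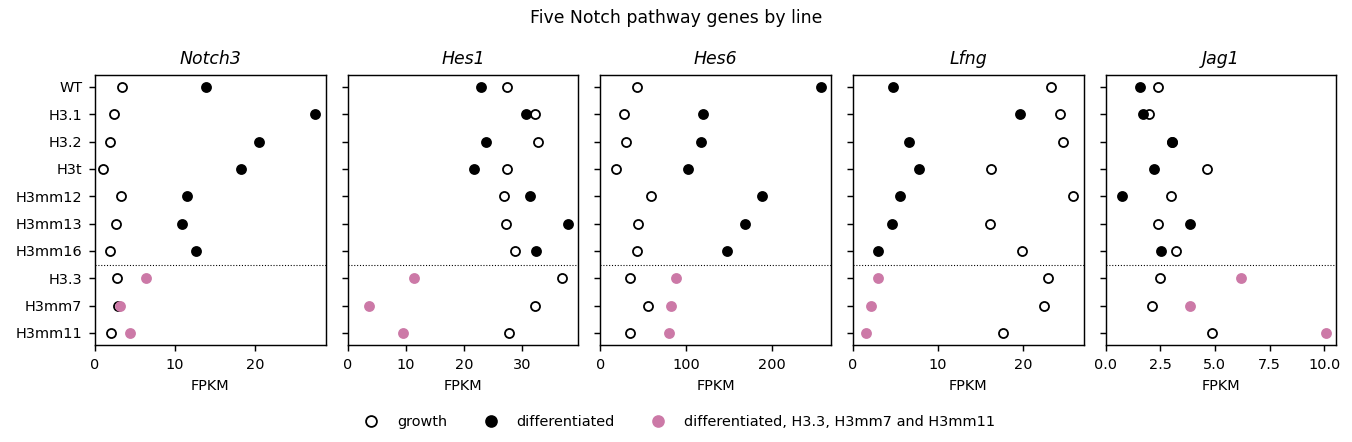
FPKM of Notch3, Hes1, Hes6, Lfng and Jag1 in growth (open) and differentiated (filled) libraries of each line, with differentiated H3.3, H3mm7 and H3mm11 below the dotted line. These 3 lines hold the lowest differentiated values of Notch3, Hes1 and Hes6, and H3mm11 and H3.3 the highest of Jag1.

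WT lay outside the range of the 9 GFP-H3 lines for 3 of 10 members in each state, against 48.4% of all genes in growth and 40% in differentiated cells, so the members' share was not above that of all genes. In growth it lay below all 9 for Notch1 (2.37 against 3.26 to 6.05 FPKM) and Notch2 (12.7 against 14.5 to 22.2 FPKM) and above all 9 for Notch3 (3.36 against 1.00 to 3.28 FPKM). In differentiated cells it lay below for Notch2 (9.05 against 11.2 to 36.4 FPKM) and above for Hes6 (257 against 80.4 to 189 FPKM) and Heyl (6.44 against 0.171 to 3.05 FPKM). Rbpj, the DNA-binding partner of the receptors, was chosen after its values were seen and had 3.23 and 4.32 FPKM in growing and differentiated WT, against 16.4 to 28.1 and 19.0 to 38.5 FPKM in the lines. How the WT reads were mapped is not given in the sources used here, and WT has 1 library a state, so a difference in handling cannot be told apart from one between cells.

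For each member the genes with the most similar pattern were sought over the 18 GFP-H3 libraries after the mean of each state had been subtracted, which leaves the differences between lines. Pearson's r, given as a description over libraries that share a line and a state, was highest for Hes1 with Nfkb1 (0.967) and Tjp1 (0.933) and for Notch3 with Ly6c1 (0.955) and Glt8d2 (0.955). Hes6 was closest to Tnnt1 (0.947), a troponin of slow muscle, and St3gal5 (0.944). Jag1 was closest to Ptk2 (0.942) and Ppp1r15b (0.910), Dll1 to Gatsl2 (0.934) and Kremen1 (0.926), and Heyl to Ganc (0.915) and Tcta (0.913). The closest genes were Nfs1 (0.907) and Fas (0.868) for Notch1, 5430435G22Rik (0.896) and Slc25a45 (0.893) for Notch2, Urod (0.876) and Pde2a (0.872) for Jag2, and Ncoa1 (0.824) and Tmem243 (0.777) for Hey1, which had the lowest values. No member was among the 2 closest genes of another. Only the 2 highest r among 10954 genes were kept for each member, so this does not show whether members vary together.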

How the data were processed

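mRNA-Seq was made from 20 libraries of C2C12 cells, 10 in growth and 10 differentiated. For the GFP-H3 lines the authors used TopHat 2.0.8 to map reads to mm9, and they deposited FPKM values from cuffdiff (Cufflinks 2.0.1, default parameters). The low values showed no step of single reads, so depth is unknown and no counting interval was given. Histone tables of 3′-seq were not used here. Values were compared as log2(FPKM + 1) with limma 3.58.1 (trend and robust settings, R 4.3.3), for genes with a mean of at least 1 FPKM, with Benjamini-Hochberg adjustment over all genes tested. State was compared over 10 and 10 libraries, and H3 type over 6 and 3 lines in 1 fit with both states, without WT. The fit was tested on simulated data drawn as independent libraries with the same spread in both states. That test does not show how the fit behaves with libraries paired by line or with unequal spread. Growth and differentiated libraries of a line come from the same cell line, and their deviations from the state means correlated with r of 0.273 (H3mm7) to 0.877 (WT), so they are paired. The main state fit and the type fit, with its interaction, did not use this pairing and counted the libraries of a line as separate. Alternatives covered pseudocounts of 0.1 and 5 FPKM, a mean of at least 5 FPKM or no filter, median-ratio and quantile scaling, plain limma, line as a block, and leaving out each line. Members, pathway lists and markers were chosen with earlier results of these data known. All members, every other pathway gene called with state and the 2 genes most like each member were named. Dtx4, the single markers between lines, Hdac1 and Rbpj were singled out after their values were seen. Nothing says that libraries came from separate experiments, so p-values rest on the spread between lines, which each main fit pools over both states. Loci are from the mm9 annotation and promoters from RefSeq (GRCm38.p6). Hes1, Hey1 and Heyl had no promoter entry. Plots and descriptions used Python 3.11.15, numpy 2.4.6, pandas 2.3.3 and matplotlib 3.10.9.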

Additional observations from a re-analysis of the deposited data

Results flagged for a closer look

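Of 20 groups (10 members in 2 states), 2 held a library far from the other 9 by Dixon's ratio of the gap to the whole range on the log2(FPKM + 1) scale, where the 95% critical value is 0.466 for 10 libraries and chance gives about 1 in 20. Notch3 in growing H3t was the lowest of 10 at 1.00 FPKM, with a ratio of 0.466117, which only just passes. Hey1 in growing H3mm7 was the highest of 10 at 9.43 FPKM, with a ratio of 0.556.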

How the results depend on the processing

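Calls with state were the steadier ones. With line as a replicate block the calls of the members did not change (Notch3 1.83, Jag2 -1.44), 979 genes were called higher and 931 lower, and Hdac1 was called lower (-1.25), so that 3 other pathway genes were lower. Hdac1 was also called with a pseudocount of 5 FPKM (-1.12) and without WT (-1.27). A pseudocount of 5 FPKM gave 517 genes higher and 576 lower and 2 members higher, with Dll1 at 0.93, Heyl at 0.43, Psen2 at 0.97, Dtx3 at 0.90 and Dlk2 at -0.51, all under the size threshold. A mean of at least 5 FPKM left 2 members higher and 1 other pathway gene lower, because fewer genes were tested. The sign of uncalled genes turned for Jag1 with a pseudocount of 0.1 FPKM (-0.017) and quantile scaling (-0.014) and for Notch2 with median-ratio scaling (-0.014), and, leaving out each line, Hes1 ran from -0.73 (without H3mm13) to -0.37 (without H3mm7), Jag1 from -0.078 to 0.17 and Notch2 from -0.11 to 0.090.

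Calls between types depended on the setting, and the cause was not tested. In growth, differentiated cells and the interaction the genes called were 7, 26 and 2 with a pseudocount of 5 FPKM, 14, 47 and 1 for genes averaging 5 FPKM or more, and 14, 39 and 2 with no filter, under which 0 members were called in differentiated cells and the call of Notch3 was lost. A pseudocount of 0.1 FPKM gave 51 in growth and 134 in differentiated cells, and quantile scaling gave 4 in the interaction. Leaving out each line gave 2 (without H3.1) to 25 in growth, 3 (without H3.1) to 293 (without H3.2) in differentiated cells and 0 to 2 in the interaction, with 0 to 1 members in differentiated cells. With 3 H3.1/H3.2-type lines and 1 library each, a smaller difference between types could be missed.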
